A study of Mus musculus with 8 samples.

Results

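Messenger RNA of mouse embryonic stem cells (ESC) that lack huntingtin was compared with that of wild-type ESC, 1 RNA-seq library a side. The wild-type library comes from the parental line, and the Htt-null library from a line homozygous for the targeted Hdh ex4/5 allele of Htt, the gene of huntingtin (huntingtin-null). All genes with at least 10 counts in either ESC library were taken, 21328 of the 32567 genes in the table (65.5%). Of the others, 3325 had no count in either ESC library and 7914 had between 1 and 9; just outside the limit 414 genes had 9 counts in the higher library, and just inside it 365 had 10. Both lines were cultured in medium with serum and leukemia inhibitory factor (LIF), on irradiated embryonic fibroblasts (feeders) or on gelatin. Before differentiation the lines were kept off feeders for 4 passages. Whether the sequenced ESC came from before or after these passages, and how many clones were sequenced, is not given in the sources used here. With 1 library per genotype no difference has a replicate check and no p-value is given: each value compares 2 libraries, and a difference of line, culture or library cannot be told apart from one of genotype.

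Huntingtin is a large scaffold protein that associates with transport motors, and mouse embryos without it die soon after gastrulation. ESC are derived from the inner cell mass and divide in culture in a pluripotent state, held by the transcription factors Pou5f1, Sox2 and Nanog and by the LIF signal. A small share of the cells of an ESC culture passes through a transient state that resembles the 2-cell embryo, in which Zscan4, Usp17-like and Tcstv genes are switched on. Others move toward the formative epiblast, which is marked by Fgf5 and Otx2.

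The counts of the Htt-null library add up to 63617410 and those of the wild-type library to 87924678, 1.38 times as many. Levels are given as CPM, counts relative to the library total scaled by the TMM factors of edgeR. Each difference is a log2 ratio, Htt-null CPM over wild-type CPM, with a prior count of 2 added. A gene is called past the fold when this ratio is above 0.75 or under -0.75, a 1.68-fold difference. Intervals are exact binomial 95% intervals on the 2 counts. They take in counting error alone, and PCR copies of a molecule are counted in them as separate reads. Where a library has 0 counts, up to 3 are allowed, which is 0.0460 CPM in Htt-null and 0.0346 CPM in wild-type cells. The 7 markers of ES cells were abundant in both libraries, between 88.8 and 986 CPM in Htt-null and between 94.6 and 1500 CPM in wild-type cells. Of the 8 fibroblast markers, Dcn was at 0 in Htt-null and Lum in wild-type cells, and the 8 summed to 26.1 and 38.9 CPM.

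The targeted gene, Htt (ENSMUSG00000029104, chromosome 5 of GRCm38), had 7260 counts in Htt-null and 14385 in wild-type ESC. The ratio for the gene was -0.58 (interval -0.62 to -0.53), so it was lower but not past the fold. Per kilobase of exon this is 4.55 against 6.79 CPM. A count over the whole gene does not separate the targeted exons from the others, so the reads that remain do not check the label.

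The promoters of 3 Zscan4 genes and of Fgf5 are shown because the Zscan4 genes were among the largest increases and Fgf5 among the largest decreases in the Htt-null library. They are the RefSeq sequences on GRCm38.p6, 300 bases that end shortly after the gene start, read along the gene's strand. In the Zscan4 promoters the capitals mark a run of 55 bases that all 3 share. The run occurs in 4 of the 32851 promoters in the table (0.0122%), those of Zscan4c, Zscan4d, Zscan4f and Zscan4b. In the Fgf5 promoter the capitals mark each CG, of which it holds 29; the median promoter holds 7, and 12.9% hold at least as many as Fgf5.
Zscan4c (chr7:11005495-11005794, plus strand): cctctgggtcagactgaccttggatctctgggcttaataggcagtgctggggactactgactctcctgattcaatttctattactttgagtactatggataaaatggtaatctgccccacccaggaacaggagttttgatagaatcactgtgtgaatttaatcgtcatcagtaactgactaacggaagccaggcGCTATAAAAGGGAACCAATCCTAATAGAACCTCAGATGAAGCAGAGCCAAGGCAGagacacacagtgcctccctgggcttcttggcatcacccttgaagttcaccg
Zscan4d (chr7:11166099-11166398, minus strand): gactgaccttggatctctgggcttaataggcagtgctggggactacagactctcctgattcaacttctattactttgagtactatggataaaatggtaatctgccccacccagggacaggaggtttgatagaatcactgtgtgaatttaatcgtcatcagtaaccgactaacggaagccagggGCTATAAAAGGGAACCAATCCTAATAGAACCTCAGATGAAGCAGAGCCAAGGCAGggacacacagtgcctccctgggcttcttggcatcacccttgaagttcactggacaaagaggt
Zscan4f (chr7:11397665-11397964, plus strand): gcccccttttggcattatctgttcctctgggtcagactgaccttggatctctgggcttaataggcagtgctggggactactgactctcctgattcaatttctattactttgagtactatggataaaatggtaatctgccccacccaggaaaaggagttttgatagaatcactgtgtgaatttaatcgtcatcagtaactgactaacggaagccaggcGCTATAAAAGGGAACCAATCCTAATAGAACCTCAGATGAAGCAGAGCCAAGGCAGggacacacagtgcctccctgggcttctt
Fgf5 (chr5:98253934-98254233, plus strand): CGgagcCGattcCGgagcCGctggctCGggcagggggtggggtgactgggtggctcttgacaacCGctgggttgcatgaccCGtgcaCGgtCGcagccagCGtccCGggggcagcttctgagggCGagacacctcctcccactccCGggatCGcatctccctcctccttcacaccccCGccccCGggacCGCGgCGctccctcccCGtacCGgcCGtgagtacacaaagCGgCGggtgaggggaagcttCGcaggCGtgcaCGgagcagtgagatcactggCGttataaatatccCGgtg
The 3 Zscan4 promoters are nearly alike, with 3 or 4 CG each. Because the transcripts are also alike, with between 4 and 8 other genes at 95% identity or more over 90% or more of the length of Zscan4c, Zscan4d and Zscan4f, the counts of single Zscan4 genes are uncertain.

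Over the 21328 genes, 2368 (11.1%) were higher and 1548 (7.26%) lower in Htt-null ESC past the fold. The ratio had a median of -0.02, quartiles of -0.26 and 0.30 and a standard deviation of 0.70. Most of the genes past the fold had few counts: 3028 of the 3916 (77.3%) had under 100 in the higher library, and for 784 the counting interval included a ratio of 0. Among the 14228 genes with at least 100 counts, 522 (3.67%) were higher and 366 (2.57%) lower, 6.24% in all, against 18.4% of the 21328.

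The share past the fold dropped with each class of counts. It was 49.7% among the 3758 genes with 10 to 29 counts, 20.2% among the 2367 with 100 to 299, and 1.01% among the 2273 with 10000 or more. The standard deviation of the ratio dropped from 1.21 to 0.24 between the lowest and the highest class. The median turned from 0.17 to -0.11 over the same classes, so abundant genes were on balance slightly lower and scarce ones slightly higher in the Htt-null library. Of the 9340 genes with at least 1000 counts, 98.3% stayed within the fold, 58 were past a log2 ratio of 1 in either direction and 5 past 2.

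**Figure D1:**
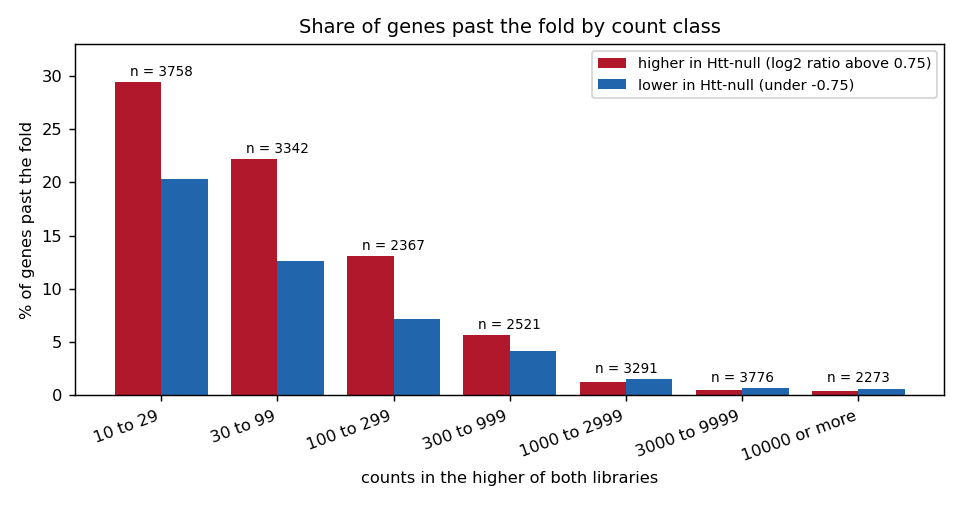
Percent of genes past the fold (log2 ratio above 0.75 in red, under -0.75 in blue) by the counts of the gene in the higher of both libraries, with the number of genes above each pair of bars. The share drops from 29.4% higher and 20.3% lower in the lowest class to 0.396% and 0.616% in the highest.

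At the top of the count range, 4 of the 5 genes that led per kilobase of exon were the same in both libraries. mt-Co1, a subunit of cytochrome oxidase, had 3158 CPM per kilobase in Htt-null and 2415 in wild-type cells, and mt-Cytb had 2894 and 2805. Dppa5a, a pluripotency gene, came after mt-Cytb in wild-type cells with 2429 CPM per kilobase and had 1308 in Htt-null cells. Of the 23 genes with at least 10000 counts past the fold, chosen after their values were seen, 14 were lower and 9 higher. The lower ones were led by Grb10, Cth, Klf5 and Ooep, and the higher ones by mt-Atp8, the transcript Gm38271, of no assigned class, Tnfrsf22 and Slc25a4.

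Genes of the 2-cell-like state were the list that differed most. Of 28 symbols, 23 were measured, with a median log2 ratio of 1.15 against -0.02 for all genes. Past the fold, 16 of these (69.6%) were higher and 0 lower, beside 11.1% and 7.26% of all genes. With 100 counts or more 14 of 18 were higher and 0 lower, beside 3.67% and 2.57% of all genes. Of the 22 outside chromosomes 8 and 11, 15 were higher and 0 lower, with a median of 1.13. The list was chosen with earlier results of these data known, so its direction is a description.

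Zscan4f, the Zscan4 gene with the most counts in the Htt-null library, had 989 counts in Htt-null and 299 in wild-type cells, a 4.38-fold difference (log2 ratio 2.13, interval 1.95 to 2.33). Zscan4c, a zinc finger gene that acts in telomere lengthening, had 527 and 172, a ratio of 2.01, and Zscan4d had 944 and 495, a ratio of 1.34. Zscan4b (0.94) and Zscan4e (1.58) were higher as well, so all 5 Zscan4 genes in the table were past the fold. The deubiquitinase genes of the Usp17-like family followed: Usp17lb had 416 and 146 counts (1.91), Usp17le 547 and 274 (1.40) and Usp17la 501 and 309 (1.10), while Usp17lc, with 325 and 299, stood at 0.53.
Gm5662 had 293 and 97 counts (1.98) and Gm2016, which is 99.3% identical to it, 225 and 103 (1.52). Tmem92, the most abundant gene of the list past the fold, had 2644 and 1562 counts, or 40.5 and 18.0 CPM. Tcstv3 stood at 1.74 on 56 and 21 counts, but its relative Tcstv1, with 92 and 119, stood at 0.04. Eif1ad, with 4015 and 5879 counts, stood at -0.14.
Higher levels in the Htt-null library were thus found in several gene families of the list, but not in every member. In bulk libraries, more cells in the state and more RNA per such cell cannot be told apart. Dux, a factor that activates this state, is not in the table.

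**Figure D2:**
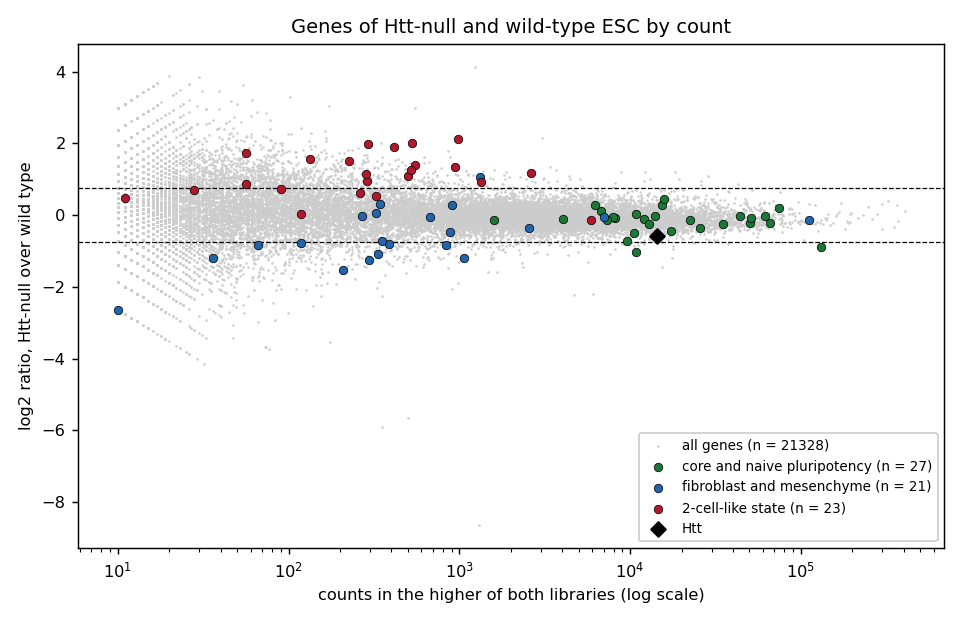
Log2 ratio (Htt-null to wild-type ESC) against the counts in the higher library (log scale) for all 21328 genes in grey, with 3 lists and Htt marked and dashed lines at 0.75 and -0.75. The genes of the 2-cell-like state lie mostly above the upper line, those of fibroblasts mostly below 0, and pluripotency factors close to 0 at high counts.

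The 10 protein-coding genes with the largest increase, at 100 counts or more, were Pramel6, Dppa3, Gpx6, Drc7, Ptchd3, Zscan4f, Lgals3bp, Zscan4c, Gm5662 and Inpp4b, with ratios between 1.94 and 3.30. Drc7 and Inpp4b lie on chromosome 8 and Ptchd3 and Lgals3bp on chromosome 11. Pramel6, a gene of the PRAME family active in preimplantation embryos, had 102 counts in Htt-null and 12 in wild-type cells (3.30, interval 2.63 to 4.50). Dppa3, a maternal factor that protects DNA from demethylation, had 551 and 91, or 8.45 and 1.05 CPM (2.98, interval 2.69 to 3.35). Neither has another gene at 95% identity over 90% of its length. Of the Pramel family 4 of 10 and of the Obox homeobox family 5 of 7 measured genes were higher and 0 lower, families that were chosen after their values were seen. With 100 counts or more these were 2 of 5 Pramel genes and 1 of 1 Obox gene. Most of the Obox genes thus lay at low counts, where 29.4% (10 to 29 counts) and 22.2% (30 to 99) of all genes were higher.

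Germline genes as a group did not move one way: of 31 measured, 5 were higher and 2 lower, with a median of -0.14. Nanos3, an RNA-binding protein of primordial germ cells on chromosome 8, had 100 and 37 counts (1.79), Rhox9 101 and 65 (1.03) and Tex19.2 396 and 294 (0.84). The lower ones were Asz1, a piRNA pathway gene, with 86 and 366 counts (-1.66), and Slc25a31, an ADP/ATP carrier of germ cells, with 540 and 1540 (-1.10). Dazl (-0.47), Ddx4 (0.48), Stra8 (-0.44) and Sycp3 (-0.22) lay within the fold.

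The pluripotency factors were close to equal in both libraries. Of 27 genes, 0 were higher and 2 lower past the fold, with a median of -0.11. Pou5f1 had 657 CPM in Htt-null and 757 in wild-type cells (-0.20), Nanog 707 and 715 (-0.02), Sox2 495 and 578 (-0.22) and Zfp42, on chromosome 8, 986 and 858 (0.20). Klf4 (-0.09), Esrrb (-0.09) and Tfcp2l1 (-0.13) of the naive network lay near 0 too. The 2 exceptions were Klf5, with 3969 and 10783 counts (-1.03), a factor that also acts in the trophectoderm, and Dppa5a, an RNA-binding protein with 52803 and 130361 counts (-0.89). Nr0b1, a target of the network, came close to the limit at -0.73. The LIF and Stat3 pathway had 0 of 15 genes past the fold and a median of -0.12.

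Of 16 genes of the primed and formative epiblast, only Fgf5 was past the fold, and the median was -0.27. Fgf5, a growth factor that marks the exit from the naive state and whose promoter is printed above, had 54 counts in Htt-null and 351 in wild-type cells. It was 4.79-fold lower, with a ratio of -2.26 and an interval of -2.73 to -1.87. Foxd3 (-0.64), Pou3f1 (-0.60), Otx2 (-0.41) and Dnmt3b (-0.34) were lower within the fold, while Sall2 stood at 0.70.

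**Figure D3:**
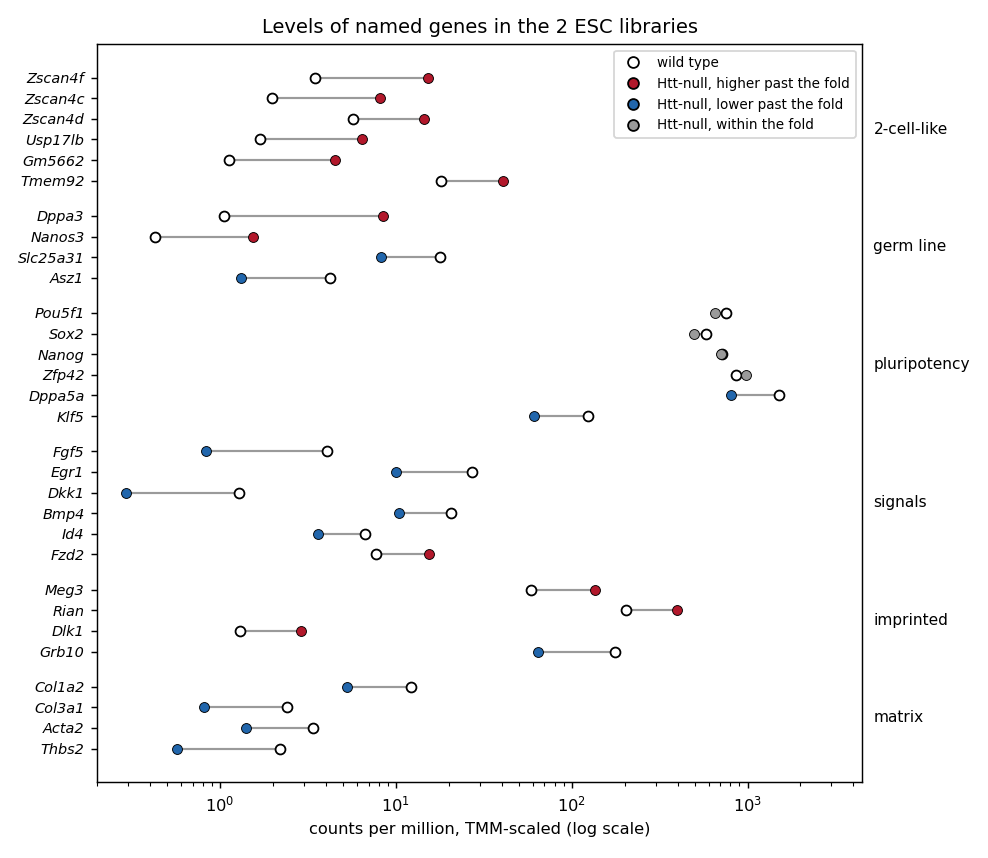
Levels in CPM in wild-type (open) and Htt-null ESC (filled) for 30 named genes on a log scale, grouped by role, 1 library per genotype. Filled points are red where the gene was higher and blue where it was lower past the fold. Zscan4f lies at 15.2 against 3.45 CPM and Fgf5 at 0.828 against 4.05, while Nanog overlaps at 707 and 715.

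In the FGF and ERK pathway 1 of 34 genes (2.94%) was higher and 4 (11.8%) lower, with a median of -0.11. Over all genes these shares were 11.1% and 7.26%. With 100 counts or more 0 of 29 genes of the pathway were higher and 2 lower, with a median of -0.08. Among the ligands, Fgf5 and Fgf8 (15 and 47 counts, -1.16) were lower, and Fgf2 (81 and 61 counts, 0.80) was higher; the abundant ligand Fgf4 stood at -0.36. Of the 6 receptors none was past the fold. Among the feedback genes and targets Egr1, an immediate early transcription factor, had 652 and 2344 counts (-1.43, interval -1.56 to -1.31), and Fosl1 had 28 and 81 (-1.08). The feedback inhibitors Spry1 (-0.74) and Dusp6 (-0.72) lay just inside the limit. The genes at the negative end of this list therefore included 2 ligands, 2 early response factors and 2 inhibitors. Outside chromosomes 8 and 11, which stood higher as a whole, the median of the list was -0.29 over 28 genes, against -0.06 for all genes outside them.

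Of 51 genes of the Wnt pathway 7 (13.7%) were higher and 4 (7.84%) lower, with a median of -0.12, shares near the 11.1% and 7.26% of all genes. With 100 counts or more 2 of 38 were higher and 3 lower. Its secreted inhibitor Dkk1 had 19 counts in Htt-null and 111 in wild-type cells (-2.05, interval -2.92 to -1.43), and the target Sp5 had 2 and 16. Among the ligands Wnt5a was lower (123 and 297 counts, -0.85) and its close relative Wnt5b higher (125 and 65, 1.33). Among the receptors Fzd4 was lower (-0.75) and Fzd2, on chromosome 11, higher (1013 and 669 counts, 1.01). Of the 7 higher genes, 3 lie on chromosome 8 or 11, which leaves 4 higher and 4 lower outside them. The others that were higher had 50 counts or fewer in both libraries.

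In the BMP, Nodal and TGF-beta pathway 2 of 40 genes were higher and 2 lower, with a median of -0.14. The higher ones were a ligand (0.78, under 100 counts) and an intracellular or target gene (1.16, 100 counts or more). Bmp4, which supports self-renewal beside LIF, had 680 and 1785 counts (-0.98), and Id4, an inhibitor of differentiation of the Id family, 235 and 576 (-0.88). Of the 9 receptors 0 were past the fold. The Notch pathway (20 genes, median -0.14) and the targets of YAP (15 genes, -0.22) had none past the fold in either direction.

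Genes of other cell types were then examined. Of 21 measured genes of feeder fibroblasts and mesenchyme, 10 were lower and 1 higher, with a median of -0.71, the lowest of the 47 lists. Among the 18 with 100 counts or more 7 were lower and 1 higher, with a median of -0.41. Col1a2, a chain of type I collagen, had 346 and 1058 counts (-1.20), Col3a1 53 and 208 (-1.54) and smooth muscle actin, Acta2, 92 and 294 (-1.25). Dcn had 0 and 10 counts, at least 2.51-fold lower when 3 counts are allowed in the Htt-null library. Fn1 (-0.14), Vim (-0.06) and Thy1 (0.29), which ESC express or which are shared with other cells, lay within the fold, and Lgals1 was higher (1329 and 838 counts, 1.07). Collagen genes as a family, chosen after their values were seen, had 10 of 42 lower (23.8%) and 0 higher, and 10 of 35 lower with 100 counts or more, where 2.57% of all genes were lower. The defining markers are at a few CPM, at most 12.8 in Htt-null and 12.2 in wild-type cells, against at least 88.8 for the ES cell markers. The labels give the 4 passages without feeders as a step before differentiation, and the part that carried-over feeder cells have in these values was not tested.

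Neural genes had a median of 0.08 over 19 measured, with 5 higher (26.3%) and 1 lower (5.26%), beside 11.1% and 7.26% of all genes. With 100 counts or more 4 of 15 were higher and 1 lower, beside 3.67% and 2.57% of all genes. Of the 15 outside chromosomes 8 and 11, 3 were higher and 0 lower. Tubb3, a neuronal tubulin, had 4420 and 2942 counts (1.00) and Sox1, a factor of the early neural plate, 1453 and 1101 (0.81), both on chromosome 8. Nes, an intermediate filament of progenitors, had 731 and 552 (0.81) and Gap43, a protein of growing axons, 718 and 406 (1.23). Mapt, which encodes tau, was lower, with 1885 and 4430 (-0.82). Pax6 stood at 0.08, and the neurogenic factor Neurog1 had 17 and 1 counts.

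Primitive endoderm genes were mixed, with 3 of 22 higher, 4 lower and a median of -0.27, and 1 of 16 higher and 2 lower with 100 counts or more. The endocytic receptor Cubn (1165 and 3257 counts, -1.07) and its adaptor Dab2 (671 and 1716, -0.94) were lower together, and Hnf4a, a factor of visceral endoderm, was higher (658 and 460, 0.92). Afp had 1 and 31 counts and Ttr 1 and 14. The defining factors Gata4 (0.24), Gata6 (-0.75, just inside the limit) and Sox17 (-0.12) were not past the fold. In the list of primitive streak and mesoderm 7 of 18 genes (38.9%) were higher and 2 (11.1%) lower, beside 11.1% and 7.26% of all genes. The median of 0.54 rested on low counts, and outside chromosomes 8 and 11 it was 0.34. Of all genes, 29.4% were higher and 20.3% lower with 10 to under 30 counts. With 30 to under 100 counts these shares were 22.2% and 12.6%. In the list 6 genes had 100 counts or more, with a median of 0.29. Of these 6, 2 were higher and 0 lower, beside 3.67% and 2.57% of all genes. The higher ones were Mesp2 (144 and 68 counts, 1.47) and Kdr (113 and 79, 0.91). T, which defines the streak, had 19 and 32 counts. In the trophectoderm list Krt7 was lower (156 and 398 counts, -0.93) and Esx1 higher (496 and 270, 1.28), and Cdx2 had 3 and 0 counts.

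Housekeeping pathways differed little. The 79 cytosolic ribosomal protein genes had a median of 0.12, with 5 higher and 0 lower, among them Rpl29 (3141 and 2028 counts, 1.04), Rps23 (0.94), Rps2 (0.86) and Rps29, just past the limit. Nuclear subunits of oxidative phosphorylation had a median of 0.11 over 75 genes, with Cox5b (0.82) alone past the fold. Outside chromosomes 8 and 11 these medians were 0.07 and 0.06. Summed over the list, the ribosomal protein genes took 35700 CPM in Htt-null and 34200 in wild-type cells, a log2 ratio of 0.06. Glycolysis (24 genes, -0.18), ribosome biogenesis (33, 0.07), cholesterol synthesis (26, 0.05), the proteasome (31, 0.08), autophagy and lysosome (51, -0.07), splicing factors (33, -0.08) and miRNA processing (19, -0.10) had none past the fold.

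Stress pathways gave single genes. Cth, which makes cysteine from cystathionine, had 5819 and 17607 counts (-1.19) and was the only one of 43 genes of the Atf4 and unfolded protein response past the fold. Hmox1, heme oxygenase, on chromosome 8, stood at 0.94 and the chaperone gene Hspa1b at 0.89. In the hypoxia list Car12 (0.95), Ak4 (0.77) and P4ha2 (0.75) were higher while the median was -0.19. The p53 targets had a median of -0.02, with Fas past the fold on 30 and 12 counts. In the interferon list 5 of 26 genes were higher and 2 lower, beside 11.1% and 7.26% of all genes. With 100 counts or more 2 of 19 were higher and 2 lower, with a median of 0.02. The list held Oas1a (381 and 215 counts, 1.23) and B2m (0.86) above and Ifit2 (-0.83) and Oasl2 (-0.94) below.

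Of 53 cell cycle regulators 0 were higher and 3 lower, with a median of -0.18, and 10 had a ratio above 0. All 53 had 100 counts or more. At that limit the median of all genes outside chromosomes 8 and 11 was -0.09, and 37.0% had a ratio above 0. Ccnd2, a D-type cyclin, had 989 and 2747 counts (-1.06), E2f2, an activator of S-phase genes, 846 and 2222 (-0.98), and the inhibitor Cdkn1b 4042 and 9282 (-0.79). The 21 genes of G2 and M had none past the fold and a median of -0.23. Of 36 huntingtin partners and transport motors only Dync1i1, a dynein intermediate chain, was past the fold (87 and 204 counts, -0.81), and of 32 primary cilium genes only Bbs1 (505 and 1184, -0.82).

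Chromatin regulators were near equal. Polycomb repressive complex 2 (PRC2), which methylates histone H3 at lysine 27, had 0 of 12 genes past the fold. Its catalytic subunit Ezh2 stood at -0.26, Suz12 at 0.14 and Eed at -0.11. In PRC1 1 of 22 genes, on chromosome 8 or 11, was higher past the fold (0.91) and 0 were lower. The 17 genes of DNA methylation and demethylation had a median of -0.11 and 1 ratio above 0, with none past the fold. All 17 lie outside chromosomes 8 and 11 and had 100 counts or more, where 37.0% of all genes had a ratio above 0. Dnmt1 stood at -0.21 and Tet1 at -0.11. Of 39 remodellers and modifiers 0 were past the fold.

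The imprinted Dlk1-Dio3 region of chromosome 12 had 3 of 7 genes higher and 1 lower. Its maternally expressed long non-coding RNAs were all above 0, Meg3 with 8797 and 5065 counts (1.21), Rian with 25946 and 17657 (0.97) and Mirg with 929 and 817 (0.60). Among the paternally expressed genes Dlk1 was higher (188 and 113 counts, 1.13) and Dio3 lower (225 and 506, -0.75). Of 38 imprinted genes measured elsewhere, a list that also holds Meg3, 3 were higher and 1 lower. The lower one, Grb10, an adaptor that restrains growth factor signals, had 4182 and 15289 counts (-1.46, interval -1.51 to -1.41) although it lies on chromosome 11. The Y chromosome had 12 measured genes, of which 4 were higher and 1 lower, with a median of 0.50. Of the 7 in its list, Zfy1 (1.28) and Uba1y (0.90) were higher and none lower.

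**Figure D4:**
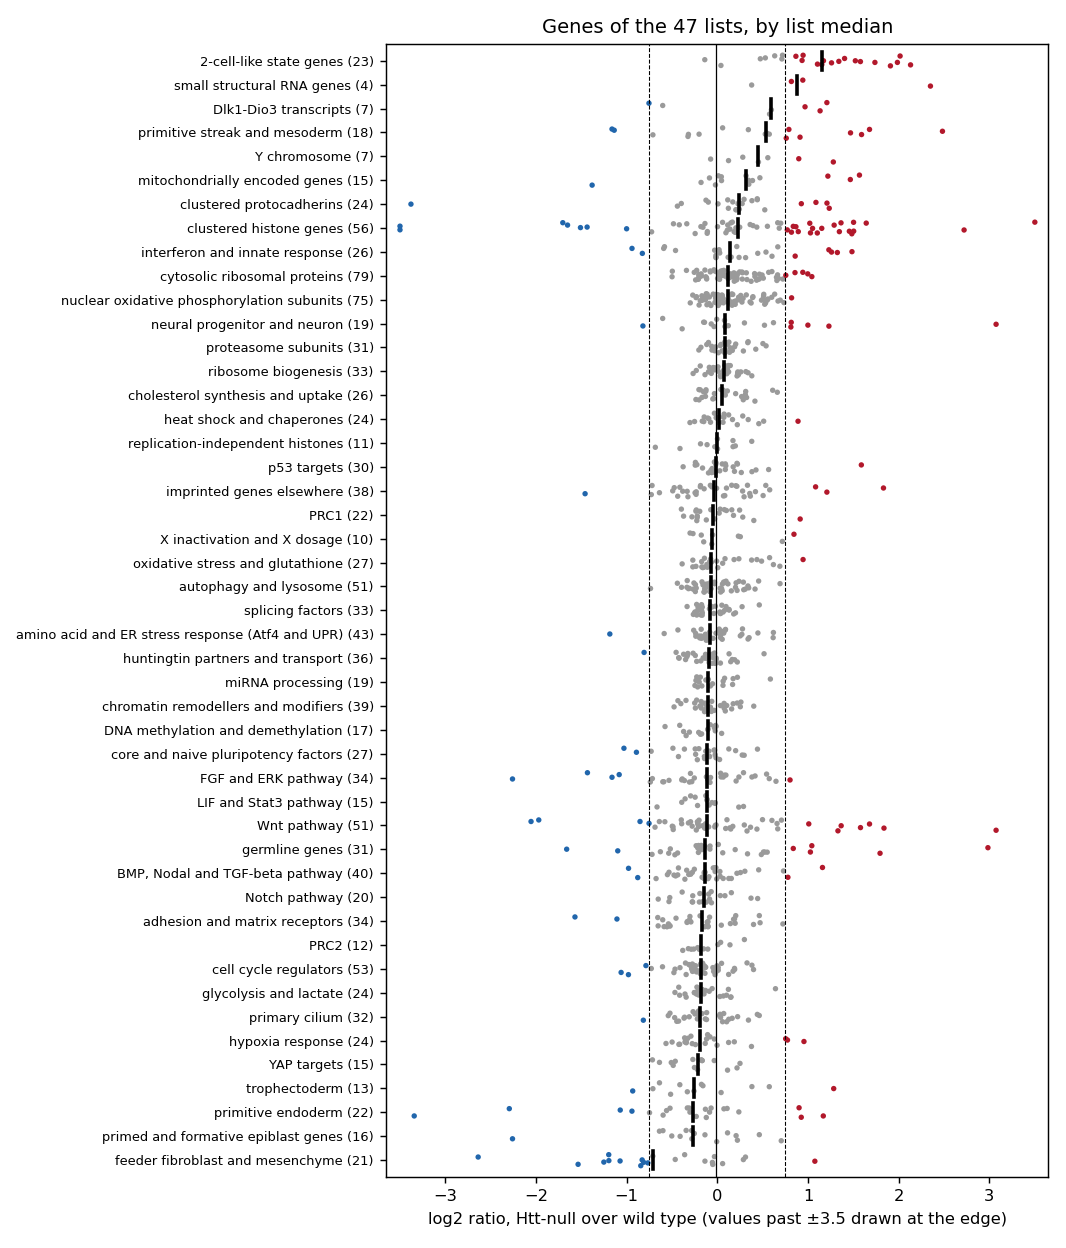
Log2 ratio of every measured gene of the 47 lists, ordered by the list's median (black tick), with the number of genes in brackets, red for genes above 0.75 and blue for genes under -0.75. The thin line is the median of all genes (-0.02). The 2-cell-like list lies at the top with a median of 1.15 and the fibroblast list at the bottom with -0.71, and 37 of the 47 medians lie between -0.25 and 0.25.

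The 47 lists hold 1280 distinct measured genes, of which 103 (8.05%) were higher and 52 (4.06%) lower past the fold. Among all protein-coding genes these shares were 7.82% and 5.04%. In 14 lists no gene was past the fold in either direction, and in 37 the median lay between -0.25 and 0.25. With 100 counts or more, 56 of 1147 list genes (4.88%) were higher and 37 (3.23%) lower, beside 2.97% and 2.26% (5.23% in all) of protein-coding and 3.67% and 2.57% of all genes at that limit.

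By biotype, protein-coding genes were past the fold less often than the other large classes: 1260 of 16118 (7.82%) were higher and 813 (5.04%) lower, with a median of -0.03. Long non-coding genes had 519 of 2371 higher (21.9%) and 328 lower (13.8%), and pseudogenes 350 of 1661 higher (21.1%) and 221 lower (13.3%). The biotypes differ in counts, with a median of 1581 in the higher library for protein-coding, 43 for long non-coding genes and 27 for pseudogenes. Among genes with 100 to 999 counts the shares past the fold came closer, with 14.1% of 3773 protein-coding genes, 17.6% of 601 long non-coding genes and 16.9% of 295 pseudogenes. In that range the 33 small nucleolar and Cajal body RNAs had 1 higher and 2 lower, and the 8 other small RNAs 4 higher and 1 lower.

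The 10 protein-coding genes with the largest decrease at 100 counts or more were Pet2, Fgf5, Efhc2, C1qtnf9, Tmem154, Dkk1, Dcdc2a, Heph, Colgalt2 and Thbs2, with ratios between -2.26 and -1.91. Efhc2, an EF-hand protein of the X chromosome, was by far the most abundant of them, with 992 and 6037 counts, or 15.2 and 69.6 CPM. Tmem154, a transmembrane protein, had 163 and 911 counts (-2.06). Heph, Colgalt2 and Thbs2 had between 27 and 37 counts in Htt-null and between 145 and 190 in wild-type cells. None of the 10 lies on chromosome 8 or 11.

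Among the long non-coding genes 1700108F19Rik was the most abundant one with a large decrease, with 756 and 4688 counts (-2.22), and Gm38324 had 17 and 140 (-2.53). The largest increases were those of Gm27167, on chromosome 8 (166 and 48 counts, 2.16), 1810013D15Rik (2.06), Gm17029 (2.01) and Gm26945, from the Dlk1-Dio3 region (223 and 82 counts, 1.83). 1810013D15Rik and Gm17029 are annotated as antisense. For the counting the Methods name a mode and otherwise default settings, with no strand option, and which strand was counted was not tested, so reads of an antisense gene cannot be told apart with certainty from those of its partner.
Differences of pseudogenes are less certain still. Gm5525 had 173 and 26 counts (3.05), but it is 97.9% identical to Eef1g, a translation elongation factor gene that had 22630 and 25732.

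Clustered histone genes had 20 of 56 higher (35.7%) and 7 lower (12.5%) with a median of 0.22, beside 11.1% and 7.26% of all genes. Of all genes with 10 to under 30 counts, 29.4% were higher and 20.3% lower. With 30 to under 100 counts these shares were 22.2% and 12.6%. Among the 14 histone genes with 100 counts or more the median was -0.14. Of these 14, 1 was higher and 4 lower, beside 3.67% and 2.57% of all genes. All 12 measured H4 genes had ratios above 0, with a median of 0.73 and 6 past the fold. Only 2 of the 12 had 100 counts or more, 1 of them higher, and the 12 summed to 915 and 835 counts. The median of all genes was 0.17 with 10 to under 30 counts and 0.16 with 30 to under 100. The H2A genes split into 4 higher and 5 lower, and with 100 counts or more 0 of 5 were higher and 3 lower. Hist1h4i had 127 and 75 counts (1.15), Hist1h2ak 78 and 284 (-1.44) and Hist3h2a 40 and 155 (-1.51). Hist1h2aj, annotated as a pseudogene, went furthest, with 1 and 1300 counts, but it is 99.7% identical to Hist1h2ai, which had 92 and 47 (1.34). Most transcripts of these genes have no poly-A tail, the libraries were made from poly-A-plus RNA, and 11 other genes match Hist1h2ak at 95% identity or more. Of 4 measured genes of structural RNAs that also lack a poly-A tail 3 were higher and 0 lower, Rpph1 (163 and 41 counts, 2.35), Rmrp (153 and 105, 0.94) and Rn7sk (152 and 114, 0.82). Small nucleolar and Cajal body RNAs, another class without a tail, had 26 of 165 higher and 33 lower, with a median of -0.11. The share of such RNA in the 2 libraries was not tested.

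Mitochondrially encoded genes had a median of 0.32 over 15, and of 0.18 over the 12 with 100 counts or more. mt-Atp8 (18302 and 10459 counts, 1.22) and mt-Nd3 (132 and 58, 1.57) were higher, while mt-Nd1 (0.04), mt-Nd5 (0.01) and mt-Cytb (0.05) stood near 0. The counts of these genes are very uneven, with 2 and 10 on mt-Co2 and 15 and 6 on mt-Co3 against 318252 and 323519 on mt-Co1, so the values of the genes with few counts are uncertain.

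By position, chromosomes 8 and 11 stood above the others from 1 to X. The 1035 genes of chromosome 8 had a median ratio of 0.37, with 17% higher and 3% lower past the fold, and the 1674 genes of chromosome 11 a median of 0.23, with 17% higher and 4.24% lower. The other 18 chromosomes from 1 to X had medians between -0.13, on chromosome 18, and 0.08, on chromosome 1. Against all other genes, chromosome 8 stood 1.35-fold and chromosome 11 1.22-fold higher.
The shift ran along the whole of both. In windows of 10 Mb, 13 of 13 medians lay above 0 on chromosome 8, between 0.20 and 0.42, and 13 of 13 on chromosome 11, between 0.10 and 0.27. On the other chromosomes 23 of 232 windows lay above 0, of which 14 were on chromosome 1, where 14 of 19 did. None of them reached the lowest window of chromosome 8, but windows on chromosomes 1 (0.16 and 0.20), 5 (0.15) and 17 (0.16) lay above the lowest one of chromosome 11. The shift was also found in each class of counts, between 0.33 and 0.55 on chromosome 8 and between 0.16 and 0.50 on chromosome 11. With 12.7% of the genes, the 2 chromosomes held 19.5% of those that were higher (461) and 6.59% of those that were lower (102). Outside them 10.2% of genes were higher and 7.77% lower.

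**Figure D5:**
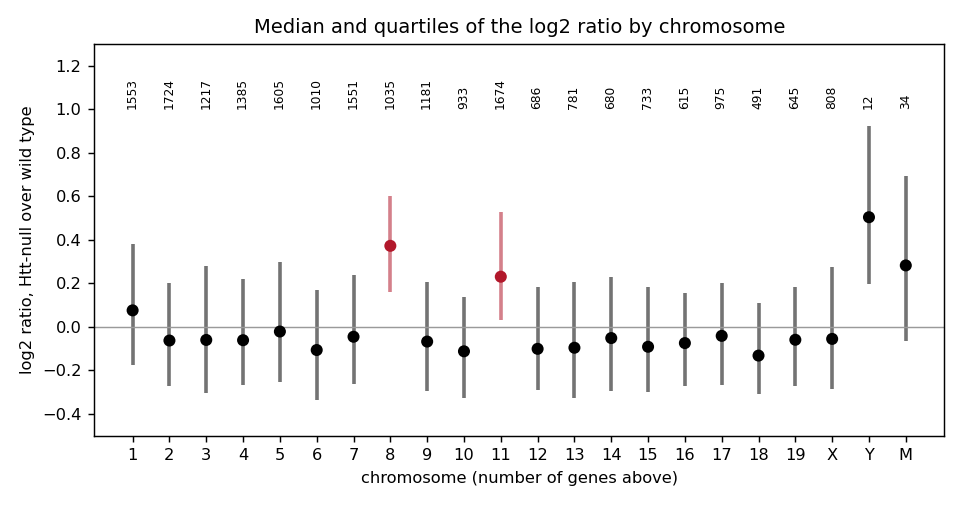
Median (point) and quartiles (bar) of the log2 ratio of the genes on each chromosome, with the number of genes above. Chromosomes 8 and 11 (red) have medians of 0.37 and 0.23, the other chromosomes from 1 to X lie between -0.13 and 0.08, and Y and M rest on 12 and 34 genes.

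The highest ratios on these chromosomes among genes with 100 counts or more were those of genes with few counts. On chromosome 8 they were Drc7 (135 and 35 counts, 2.30), Gm27167, Inpp4b, Nanos3 and Dpep2 (210 and 83, 1.73), and on chromosome 11 Ptchd3 (104 and 27, 2.28), Lgals3bp, the eosinophil peroxidase gene Epx (142 and 48, 1.93), Gal3st1 and Aldh3a1. Against the shift of its chromosome, Setd6, a lysine methyltransferase gene on chromosome 8, was lower, with 5154 and 12041 counts (-0.81), and so were Grb10 and Mapt on chromosome 11.

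The ratio also moved with transcript length. Among 9137 protein-coding genes with at least 1000 counts the median dropped from 0.08 for the 133 genes with under 1000 exonic bases to -0.12 for the 1929 with 8000 or more. Without ribosomal and respiratory genes, which are short, the medians of these 2 classes were 0.06 and -0.12, and outside chromosomes 8 and 11 they were 0.04 and -0.14. The part of length in the medians of lists with short genes, such as those of the ribosome, was not tested.

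Finally, the genes past the fold in ESC were followed in the cells differentiated from both lines with retinoic acid, which are separate libraries. Htt was higher there in the library labelled Htt-null (0.43), opposite to ESC. A count over the whole gene does not check these labels either, so all directions in differentiated cells are given by the labels. Of the 464 genes higher in Htt-null ESC that were measured there with at least 100 counts in ESC, 14.2% were higher and 21.3% lower past the fold by the labels. Of the 329 lower ones, 33.4% were higher and 10.9% lower. Among all genes with 100 counts in ESC these shares were 10.3% and 7.3%. With the labels of the differentiated libraries exchanged, each of these directions turns. On few counts, Dppa3 stood at -2.69 (8 and 72) and Zscan4f at -1.35 (9 and 30) by the labels.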

How the data were processed

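RNA was extracted from wild-type and Htt-null ESC, poly-A-plus RNA was made into strand-specific dUTP libraries, 1 per genotype, and 50 bp paired-end reads were sequenced. The authors aligned them with TopHat2 2.0.14 to GRCm38.p4 guided by Gencode and counted them per gene with HTSeq 0.6.1 in the intersection-nonempty mode. The deposited values are raw counts, without normalization. They add up to 63617410 (Htt-null) and 87924678 (wild type); all 4 RNA-seq libraries of the series entered the scaling. Every column of per-sample values was assigned to a sample. The small RNA table and the authors' comparisons were not used here.

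From the counts, TMM factors over the 4 libraries and log2 CPM with a prior count of 2 were computed with edgeR 4.0.16 in R 4.3.3. With 1 library per condition no dispersion can be estimated, so no test was run, and genes past an absolute log2 ratio of 0.75, the limit of the Methods, were counted. Only as an alternative, the exact test of edgeR was run with an assumed dispersion of 0.1 (Methods) or 0.01, at p under 0.05 and log2 CPM above 0. Other alternatives were other scalings (DESeq2 1.42.0 size factors, library size alone), prior counts, count limits and a wild-type library thinned to the Htt-null total. Intervals are exact binomial at the 95% level. The ratio step was tested on simulated counts with known fold changes. Intervals were computed with scipy 1.17.1, tables with pandas 2.3.3 and numpy 2.4.6 under Python 3.11.15, and figures drawn with matplotlib 3.10.9.

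Positions and biotypes are those given with the deposited counts. Exon lengths are those of GENCODE vM21, which has 32304 of the 32567 genes, and 99.4% of the genes measured have a length. Near-identical copies were searched among the GENCODE vM21 transcripts with BLAST+ 2.17.0. The RefSeq promoter table on GRCm38.p6 matched 60.8% of the genes measured, too few to compare promoter properties between groups of genes.

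The genes measured and the 47 lists were chosen with earlier results of these data known. Named genes are Htt, the largest differences by biotype among genes with 100 counts or more (10 each way for protein-coding, 5 for long non-coding genes and 3 for pseudogenes, not all printed), the members of each list past the fold with 100 counts or more (up to 4 each way) or defining it, the 5 genes of highest count per length, and the 5 with the highest ratio on chromosomes 8 and 11 at 100 counts or more. Other list members with fewer counts and the gene families were chosen after their values were seen. A few of the named genes are not reported here.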

Additional observations from a re-analysis of the deposited data

Results flagged for a closer look

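Some values had one direction between the ESC libraries and the opposite one between the libraries of the differentiated cells, which share no sample with them. With 1 library per condition the difference between the stages was not tested, and the direction in differentiated cells rests on the labels, which the count of Htt over the whole gene does not check. Each pair below gives the log2 ratio in ESC and then that in differentiated cells by the labels. With the labels of the differentiated libraries exchanged, the second value of each pair changes sign, so pairs with opposite signs then have the same direction and pairs with the same sign opposite ones. Which library is which was not settled here, so the opposite directions are values by the labels only. Htt had -0.58 and 0.43, the median of chromosome 8 was 0.37 and -0.22, and that of the mitochondrial chromosome 0.28 and -0.66. The mitochondrial median in ESC was 0.14 at 100 counts or more, and the list of 15 mitochondrially encoded genes had medians of 0.32 and -0.08. Chromosomes 11 (0.23 and 0.0) and Y (0.50 and 0.54) did not have opposite directions.

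Named genes are given where both ratios were past the fold in opposite directions with 100 counts or more in the higher library of each stage. Of 83 named genes past the fold in ESC with these counts at each stage, 28 had the opposite direction past the fold by the labels. These were 7 of the 38 higher and 21 of the 45 lower in ESC. Over all genes past the fold in ESC with at least 100 counts there, 21.3% of the higher and 33.4% of the lower ones had the opposite direction. Another 10 named genes had the same direction, among them Inpp4b (1.94 and 2.00), Lgals3bp (2.08 and 0.95) and Dppa5a (-0.89 and -2.79), and 45 were within the fold in differentiated cells. Several of the 28 were genes of matrix and mesenchyme, whose list had medians of -0.71 and 1.53. The collagen genes Col1a1 (-0.83 and 2.06), Col1a2 (-1.20 and 1.64), Col3a1 (-1.54 and 1.34), Col5a2 (-0.81 and 1.24) and Col6a1 (-1.07 and 1.51) had this pattern. So did Acta2 (-1.25 and 3.95), the mesenchymal factor Prrx1 (-0.77 and 1.53), the cadherin Cdh11 (-1.57 and 1.08), the matrix protein gene Thbs2 (-1.91 and 2.55), Colgalt2, a collagen galactosyltransferase (-1.95 and 1.34), and Heph, an iron oxidase (-1.96 and 1.04).

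Among signalling genes the pattern was that of Egr1 (-1.43 and 1.91), Bmp4 (-0.98 and 2.37), Wnt5a (-0.85 and 0.78) and Fzd4 (-0.75 and 1.16). Dab2 (-0.94 and 1.79), Cd9 (-0.85 and 1.63), Ooep (-0.95 and 0.79), Slc25a31 (-1.10 and 2.58), Dync1i1 (-0.81 and 1.86) and Ifit2 (-0.83 and 0.91) had it as well. The opposite order, higher in Htt-null ESC and lower in the differentiated library labelled Htt-null, was that of Tubb3 (1.00 and -1.69), Sox1 (0.81 and -0.89), Nanos3 (1.79 and -1.28) and mt-Nd3 (1.57 and -1.24). The structural RNA genes Rpph1 (2.35 and -3.99), Rmrp (0.94 and -5.63) and Rn7sk (0.82 and -4.21), which lack a poly-A tail, had this order too.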

How the results depend on the processing

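The number of genes past the fold depended on the count limit and on the rule for a call. It was 2368 higher and 1548 lower at 10 counts, 522 and 366 at 100 counts, and 5217 and 2943 at 1 count. At a log2 limit of 1 they numbered 1597 and 999. The exact test called 152 higher and 100 lower at an assumed dispersion of 0.1, and 698 and 461 at 0.01. Scaling moved the level of all genes by at most 0.06: with library size alone the median of chromosome 8 was 0.43, that of chromosome 11 0.29 and Htt -0.52, and with the size factors of DESeq2 the medians were 0.34 and 0.20. At 100 counts the median of chromosome 11 was 0.21. Of 329 recomputed medians of lists, 326 stayed within the interval of the median. Only the lists of the 2-cell-like state (1.15) and of structural RNAs (0.88) had medians past 0.75 in size, and neither changed sign. Of 132 chromosome medians 40, of 47 biotype medians 11 and of 276 values of named genes 40 moved beyond the interval. No named gene past 0.75 changed sign. The medians of chromosomes and biotype classes were all within 0.75, so this check does not bear on them. Medians near 0 changed sign for PRC1, the p53 targets and imprinted genes elsewhere (library size alone), for heat shock (DESeq2, or without chromosomes 8 and 11) and for replication-independent histones; that of clustered histones turned to -0.14 at 100 counts. No paired analysis was possible because each genotype has 1 ESC library.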
